A study of Homo sapiens with 4 samples.

Results

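The enzymes that make serine, proline and asparagine were examined after knockdown of CEBPG, a basic leucine-zipper factor that belongs to the CCAAT enhancer binding proteins (CEBPs). The 10 genes were chosen by name, with no threshold on their values but with earlier results of these data known: PHGDH, PSAT1 and PSPH for serine, SHMT1, SHMT2 and MTHFD2 for glycine and one-carbon units, ALDH18A1 and PYCR1 for proline, ASNS for asparagine and GPT2 for alanine. All 10 were among the 16504 gene symbols of the table, with 33 RefSeq transcripts, and all 10 passed the filter on low values. RNA-seq was performed on 2 control libraries, labelled NC with CEBPG present, and 2 CEBPG knockdown libraries, labelled CEBPG3. The labels give the cell line of all 4 as NB4, a human acute promyelocytic leukemia line. In the study methods, short hairpin RNAs (shRNAs) were delivered with the lentiviral vector pLKO.1-puro and stable cells were selected with puromycin. The number 3 in the knockdown label was taken for the shRNA so numbered, which is an assumption, and under it the knockdown rests on 1 hairpin. Whether the replicates came from separate cultures was not stated, so p-values measure only the spread between these libraries.

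Serine is built from a glycolytic intermediate in consecutive steps by PHGDH, PSAT1 and PSPH. SHMT1 in the cytosol and SHMT2 in the mitochondrion then split serine into glycine and a folate-bound one-carbon unit, which MTHFD2 oxidizes in the mitochondrion. ALDH18A1 and PYCR1 lead from glutamate to proline, ASNS makes asparagine from aspartate and glutamine, and GPT2 makes alanine from pyruvate in the mitochondrion. Many of these genes are textbook targets of ATF4, the leucine-zipper factor of the amino acid response, which binds composite CEBP-ATF elements as a dimer with CEBP family members, CEBPG among them.

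Promoters were read to show where such an element occurs next to the members. Promoter windows of 250 bases before to 50 bases after a gene start (RefSeq, GRCh38.p14) were found for 6 of the 10 members: ASNS, PHGDH, PSAT1, MTHFD2, ALDH18A1 and SHMT1. PSPH, SHMT2, PYCR1 and GPT2 had none. The core TGATGNAA was searched on both strands, and 3.62% of all 35116 windows held it. Among the members it was found in ASNS only, in 1 of its 2 windows, 68 to 61 bases before the start on the coding strand. CEBPG itself held it in 1 of 2 windows, 42 to 35 bases before the start. The CEBPG match is also a match to TTGCATCA on the opposite strand, which 0.866% of all windows held. The 2 matches are shown with 11 bases on each side, with the core in capitals:
ASNS, minus strand, chr7:97872458-97872487: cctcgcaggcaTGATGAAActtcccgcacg
CEBPG, plus strand, chr19:33374060-33374089: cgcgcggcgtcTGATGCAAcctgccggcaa
The printed ASNS bases overlap an exon of 3 ASNS transcripts in GENCODE 44, and the CEBPG bases overlap no exon there. A match describes the sequence only, and binding was not measured in these data.

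Levels are given in FPKM, fragments per kilobase of transcript scaled to the mapped fragments of the library. The knockdown was checked first: CEBPG measured 17.1 and 18.1 FPKM in the controls against 6.91 and 7.96 FPKM after knockdown. The groups did not overlap, and 42.2% of the control mean remained (log2 fold change -1.14, SE 0.082, limma adjusted p = 0.000836). Summed FPKM ranged from 345340 to 366139 per library. Of 14 erythroid marker genes, 11 were over 10 FPKM in every library, led by HBG2 with a mean of 3308 FPKM, and EPB42 and AHSP stayed under 1 FPKM. The summed level of the list was 8436 and 7966 FPKM in the control and 9436 and 8869 FPKM in the knockdown libraries. Of 12 promyelocytic and myeloid markers, 2 were over 10 FPKM in every library (LYZ, the highest with a mean of 17.2 FPKM, and SPI1) and 7 stayed under 1 FPKM, among them the granule genes AZU1 and PRTN3. Their sum was 51.0 to 53.7 FPKM, and single markers moved either way within it. LYZ was at 20.1 and 18.1 FPKM in the control and 15.0 and 15.5 FPKM in the knockdown libraries. CD33 was at 4.31 and 7.57 FPKM in the control and 9.77 and 9.41 FPKM in the knockdown libraries. Of 3 lymphoid markers, MS4A1 had no value here, and CD3E and CD79A, of which CD79A was the higher, stayed under 1 FPKM. No marker was at 0 in all 4 libraries. The markers of a promyelocytic line were thus low and those of erythroid cells high in every library, and the cells are called by their label only. The part of these marker levels in the results below was not tested. In bulk RNA, fewer cells of a type and less RNA per cell cannot be told apart.

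Of the 10 enzymes, 3 (30%) were called changed on CEBPG knockdown, where 20.9% of all genes tested were. The 3 moved in different directions. PHGDH rose, PSAT1 and ASNS fell, and the other 7 did not pass the test at an adjusted p under 0.05. Fold changes were taken on log2(FPKM + 1) and tested in limma over the 10968 genes that averaged 1 FPKM or more, 20.9% of which were called, 10.9% higher and 9.99% lower. Of all genes called, 52.1% were higher, against 62.9% without control 1, 43.2% without control 2, 46.7% with columns scaled to one sum and 48.4% with median-ratio scaling. The median log2 fold change of the 10 was 0.034, beside 0.015 over all genes tested. The groups did not overlap in 7 of the 10, a pattern found in 64.8% of all genes tested. Both knockdown libraries lay above both controls for 4 of them (34.3% of all genes) and below both for 3 (30.5% of all genes). None of the 10 passed the threshold of the study, read as an unadjusted p under 0.05 and a fold change over 2, which 0.602% of all genes passed in limma, while 5 of the 10 had an unadjusted p under 0.05, as did 37% of all genes. Without knockdown 1 no member was called, where 7.39% of all genes were, and without knockdown 2 only PSAT1 was, where 7.9% were.

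**Figure D1:**
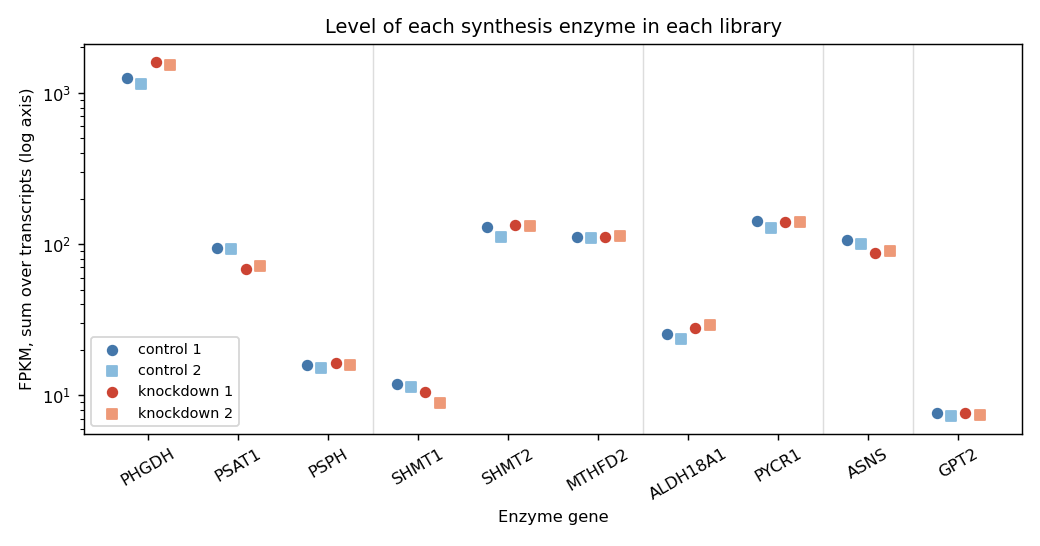
FPKM of each enzyme, summed over its transcripts, on a log axis, with 1 point for each of the 4 libraries (circles for replicate 1, squares for replicate 2). PHGDH lies between 1137 and 1608 FPKM, the other enzymes between 7.31 and 143 FPKM.

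The first enzyme of serine synthesis rose while the second fell. PHGDH, which commits the glycolytic intermediate 3-phosphoglycerate to serine, lies on chromosome 1 at positions 119711934 to 119744215 (GRCh38.p14) and was listed as a single transcript, NM_006623. It measured 1264 and 1137 FPKM in the controls against 1608 and 1519 FPKM after knockdown. Both values after knockdown exceeded both control values, and PHGDH was 22nd of all genes by mean level. Means were 1200.4 ± 89.5 FPKM (SD, n = 2) without and 1564 ± 63.1 FPKM (SD, n = 2) with the knockdown, a rise to 130.3% of control. The log2 fold change was 0.38 (SE 0.077, 95% confidence interval 0.20 to 0.57, limma adjusted p = 0.0173). With the most abundant transcript and with no filter on low values, the values of PHGDH and this fold change were the same. Only its error and adjusted p differ in those settings. The adjusted p was 0.183 without knockdown 1, 0.107 without knockdown 2, 0.0678 with the most abundant transcript and 0.116 with no filter on low values (limma).

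PSAT1, the aminotransferase of the next step, lies on chromosome 9 at positions 78297125 to 78330093. It had values of 93.7 and 93.3 FPKM without and 68.5 and 71.99 FPKM with the knockdown. Both values after knockdown were under both control values, which were nearly equal. The mean was 93.5 ± 0.270 FPKM (SD, n = 2) in the control and 70.2 ± 2.47 FPKM (SD, n = 2) in the knockdown, or 75.1% of control. The log2 fold change was -0.41 (SE 0.057, 95% confidence interval -0.54 to -0.27, limma adjusted p = 0.00539). It had the largest absolute fold change of the 10 enzymes here and in 11 of the 13 alternatives. PHGDH exceeded it without control 1 (0.46), and SHMT1 (-0.44) and PHGDH (0.38) exceeded it with the most abundant transcript, where PSAT1 was at -0.37. Without knockdown 1 its adjusted p was 0.0584 (limma). Both of its transcripts were lower in both knockdown libraries. NM_058179, the major one, stood at 86.8 and 84.7 FPKM in control 1 and 2 and at 63.7 and 68.7 FPKM in knockdown 1 and 2. NM_021154 measured 6.96 and 8.61 FPKM in the controls against 4.80 and 3.26 FPKM after knockdown. Neither transcript was called on its own (limma over all 15795 transcripts, adjusted p = 0.101 and 0.165).

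PSPH, the phosphatase that releases serine, lies on chromosome 7 at positions 56011064 to 56051444 and had a single transcript. It has a pseudogene copy, PSPHP1, and how reads shared by such copies were divided was not stated, so its level is uncertain. It had values of 15.95 and 15.1 FPKM without and 16.4 and 15.9 FPKM with the knockdown. The groups overlapped, and the log2 fold change of 0.055 had a 95% confidence interval from -0.098 to 0.21 (limma adjusted p = 0.573). It was 0.094 without control 1 and 0.017 without control 2. The ratio of PHGDH to PSAT1 within a library, both per length, was 13.5 and 12.2 in the control and 23.5 and 21.1 in the knockdown libraries. That of PHGDH to PSPH was 79.2 and 75.5 in the control and 98.2 and 95.4 in the knockdown libraries. For both ratios the groups did not overlap. For PHGDH to PSAT1 this follows from the values of the 2 genes given above and adds nothing to them. With 2 libraries against 2, no exact test of a single ratio was run.

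**Figure D2:**
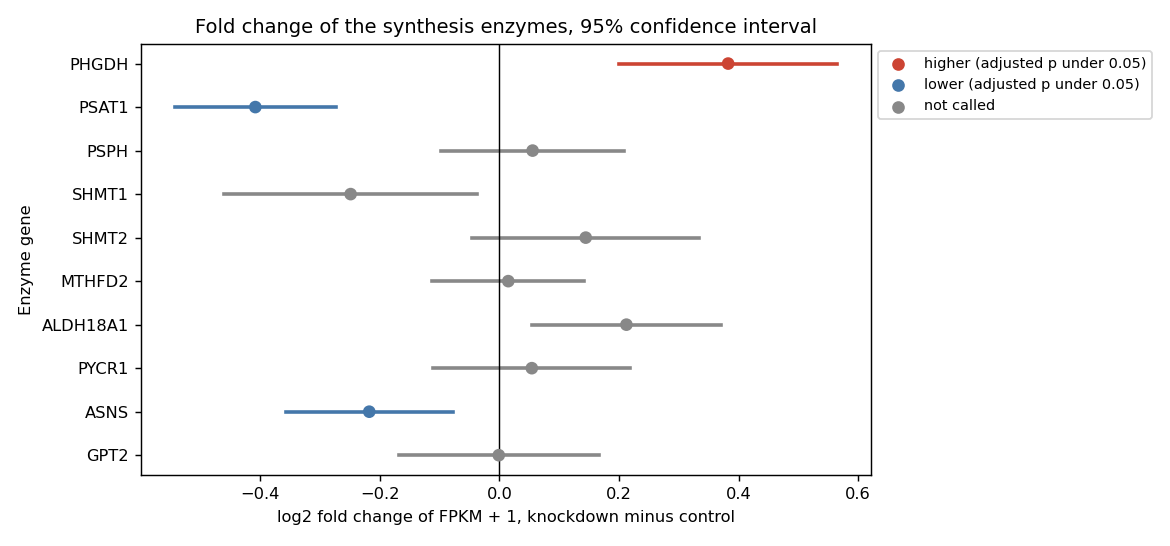
Log2 fold change of FPKM + 1, knockdown minus control, of each enzyme with its 95% confidence interval from limma, coloured by call at an adjusted p under 0.05. PHGDH (0.38) lies to the right of 0, PSAT1 (-0.41) and ASNS (-0.22) to the left, and 5 of the 7 intervals that are not called cross 0.

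None of the enzymes of glycine and one-carbon synthesis was called. SHMT1, the cytosolic enzyme, lies on chromosome 17 at positions 18327873 to 18363550. It stood at 11.9 and 11.3 FPKM in control 1 and 2 and at 10.5 and 8.86 FPKM in knockdown 1 and 2. The groups did not overlap, but knockdown 1 lay close to the controls. Its log2 fold change was -0.25 (SE 0.089, 95% confidence interval -0.46 to -0.038, limma adjusted p = 0.0913). It was -0.14 without knockdown 2 and -0.36 without knockdown 1, and SHMT1 was called with the replicate number as a block (limma adjusted p = 0.0295). SHMT2, the mitochondrial enzyme, lies on chromosome 12 at positions 57229711 to 57234935. It measured 129 and 111 FPKM in the controls against 134 and 131 FPKM after knockdown. The gap between the 2 controls was larger than that from control 1 to the knockdown. Its log2 fold change was 0.14 (SE 0.080, 95% confidence interval -0.045 to 0.33, limma adjusted p = 0.235). Without control 1 it was 0.25 and was called (limma adjusted p = 0.0357), and without control 2 it was 0.036. The ratio of SHMT2 to SHMT1 was 10.8 and 9.81 in the control and 12.8 and 14.8 in the knockdown libraries. Thus SHMT2, summed over its transcripts, was the more abundant of the pair in every library. The non-coding transcript NR_029417 held 42.2% to 56.1% of that sum, so the ratio is not one of coding RNA alone.

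MTHFD2, on chromosome 2 at positions 74198615 to 74217565, was near-equal in all 4 libraries. It had values of 111 and 110.4 FPKM without and 111 and 112 FPKM with the knockdown. The log2 fold change was 0.015 (SE 0.054, 95% confidence interval -0.11 to 0.14, limma adjusted p = 0.869). The mean after knockdown was 101% of control, and the sign turned when columns were scaled to one sum (-0.0073).

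Transcripts of these genes shared the signal unevenly between libraries. NR_027405, the non-coding transcript of MTHFD2, held 18.9% of the gene in control 1 and 31.9% to 33.3% in the other 3 libraries. The coding transcript NM_006636 made up the rest, at 89.8 FPKM in control 1 and 74.1 to 76.5 FPKM in the others, so that the near-equal totals of MTHFD2 came with a different split in control 1. Of SHMT2, the coding transcript NM_005412 was at 70.2 FPKM in control 1 and 64.0 FPKM in knockdown 1, but at 30.5 FPKM in control 2 and 36.8 FPKM in knockdown 2. The libraries numbered 1 were high and those numbered 2 low, in both groups. Of the 25 transcripts of the enzymes that were tested, 6 were higher in both libraries numbered 1 (14.8% of all tested transcripts), 5 were higher in both numbered 2 (9.66% of all), and 14 overlapped between the numbers. Over all 15795 transcripts, deviations from the group means correlated at -0.0033 between libraries of equal number. The non-coding transcript NR_029417 held 42.2% to 56.1% of SHMT2 and stood at 54.6 and 56.7 FPKM in control 1 and 2 and at 64.0 and 73.4 FPKM in knockdown 1 and 2 (log2 fold change 0.30, limma adjusted p over all transcripts = 0.19). With coding transcripts alone, a setting added after the values were seen, the log2 fold change was 0.0071 for SHMT2 and -0.12 for MTHFD2. Of the 33 transcripts of the 10 enzymes, 25 were tested and 0 had an adjusted p under 0.05 in limma, where 0.158% of all transcripts did. An unadjusted p under 0.05 was found for 6 of them, against 20.3% of all transcripts.

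**Figure D3:**
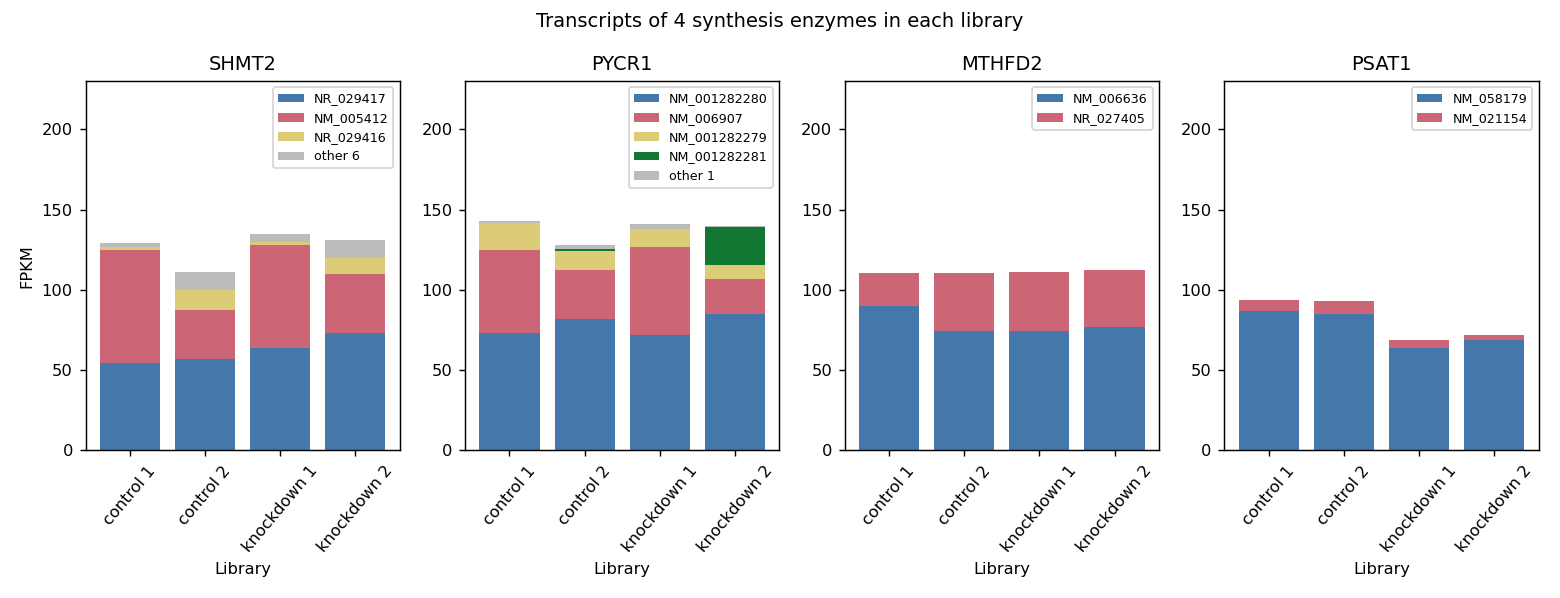
FPKM of the transcripts of SHMT2, PYCR1, MTHFD2 and PSAT1 in each library, as bars stacked from 0, with transcripts under 3% of the gene pooled in grey. The totals of SHMT2, PYCR1 and MTHFD2 are similar in all libraries while their split differs, and both transcripts of PSAT1 are lower in the knockdown.

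The enzymes of proline synthesis were not called. ALDH18A1, which carries out the first steps from glutamate, lies on chromosome 10 at positions 95605941 to 95656711. It measured 25.5 and 23.6 FPKM in the controls against 27.8 and 29.3 FPKM after knockdown. Both knockdown libraries lay above both controls. The log2 fold change was 0.21 (SE 0.067, 95% confidence interval 0.054 to 0.37, limma adjusted p = 0.0643). It was called without control 1 (0.27, limma adjusted p = 0.0474), with a mean of at least 5 FPKM (limma adjusted p = 0.0472), with median-ratio scaling (0.20, limma adjusted p = 0.0416) and with the replicate number as a block (limma adjusted p = 0.0323). Its value ranged from 0.16 to 0.27 over all alternatives. PYCR1, the reductase of the last step in the mitochondrion, lies on chromosome 17 at positions 81932391 to 81937300. It had values of 143 and 128 FPKM without and 141 and 139.8 FPKM with the knockdown, and the groups overlapped. Its log2 fold change was 0.054 (95% confidence interval -0.11 to 0.22, limma adjusted p = 0.611). Without control 2 it was -0.027, and without control 1 it was 0.14. Its transcript NM_006907 was at 52.1 and 54.5 FPKM in the libraries numbered 1 and at 30.8 and 21.7 FPKM in those numbered 2. NM_001282281 was listed at 0 in both libraries numbered 1, at 1.62 FPKM in control 2 and at 23.3 FPKM in knockdown 2. PYCR3, a paralog that also reduces pyrroline-5-carboxylate, measured 6.19 and 5.59 FPKM in the controls against 8.09 and 6.62 FPKM after knockdown (log2 fold change 0.27, limma adjusted p = 0.106). For PYCR3 the value was 0.15 without knockdown 1 and 0.40 without knockdown 2, and it was called with the replicate number as a block (limma adjusted p = 0.0295). PYCR1 was thus the more abundant of these 2 reductases in every library.

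ASNS, the asparagine synthetase with the TGATGAAA element printed above, fell slightly. It lies on chromosome 7 at positions 97851677 to 97928441. It had values of 106 and 101 FPKM without and 87.5 and 90.1 FPKM with the knockdown. Both knockdown libraries lay below both controls, with a mean of 103 ± 4.03 FPKM (SD, n = 2) in the control and 88.8 ± 1.87 FPKM (SD, n = 2) in the knockdown, or 85.8% of control. The log2 fold change was -0.22 (SE 0.059, 95% confidence interval -0.36 to -0.078, limma adjusted p = 0.042). This call was the weakest of the 3 enzymes called. The adjusted p was 0.0933 without control 1, 0.25 without knockdown 1 and 0.165 without knockdown 2 (limma). It was 0.0822 with moderation without a trend, 0.108 with the most abundant transcript and 0.0797 with no filter on low values (limma). The transcript NM_001673 held 94.0% to 94.6% of ASNS in every library, with 100.5 and 94.6 FPKM in the controls and 82.6 and 85.0 FPKM after knockdown. GPT2, the mitochondrial alanine aminotransferase, lies on chromosome 16 at positions 46884362 to 46931289. It stood at 7.69 and 7.31 FPKM in control 1 and 2 and at 7.59 and 7.39 FPKM in knockdown 1 and 2. The knockdown libraries fell between the 2 controls, and the log2 fold change of -0.0011 had a 95% confidence interval from -0.17 to 0.17 (limma adjusted p = 0.993). GPT, its cytosolic paralog, was under the filter, with 0.312 and 0.419 FPKM in the controls and 0.716 and 0.417 FPKM after knockdown.

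FPKM is per length, so levels of the enzymes may be set side by side. In the order of control means they were PHGDH, PYCR1, SHMT2, MTHFD2, ASNS, PSAT1, ALDH18A1, PSPH, SHMT1 and GPT2. The order of the knockdown means was the same. These sums hold non-coding transcripts: NR_029417 with 42.2% to 56.1% of SHMT2 and NR_027405 with 18.9% to 33.3% of MTHFD2. The coding transcript of MTHFD2 alone was at 89.8 and 74.6 FPKM in the controls, under ASNS and PSAT1. After knockdown it was at 74.1 and 76.5 FPKM, above PSAT1. The order thus holds for sums over all transcripts and was not taken on coding transcripts alone. PYCR1 and SHMT2 overlapped in the controls, and SHMT2 exceeded MTHFD2 by less than its own SD of 12.8 FPKM. The other neighbours did not overlap in the controls. The summed level of the 10 enzymes was 1908 and 1738 FPKM in the control and 2213 and 2126 FPKM in the knockdown libraries, which is 0.521% and 0.503% of all FPKM against 0.604% and 0.597%. Without PHGDH the sum was 644 and 600.5 FPKM in the control and 605 and 606 FPKM in the knockdown libraries, where the groups overlapped.

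To place the enzymes among the genes around them, lists were read from the same fit. Of 33 serine, glycine and one-carbon genes outside the members, 26 were tested, 3 rose and 3 fell. That is 23.1% called, against 20.9% of all genes tested, with a median log2 fold change of 0.011. TYMS, thymidylate synthase, rose from 175 and 169 FPKM to 218 and 208 FPKM (0.30, limma adjusted p = 0.0145). SFXN1, a mitochondrial serine transporter, rose by 0.23 in log2 units (limma adjusted p = 0.0289), and SLC25A32, the mitochondrial folate carrier, by 0.28 (limma adjusted p = 0.0266). For SLC25A32 the value was 0.15 with coding transcripts only (limma adjusted p = 0.312) and with the most abundant transcript (limma adjusted p = 0.454), and it was called in neither setting. MTR, methionine synthase, fell from 10.5 and 10.03 FPKM to 6.75 and 7.29 FPKM (-0.49, limma adjusted p = 0.00641). ATIC of purine synthesis fell by 0.24 in log2 units (limma adjusted p = 0.0375) and CBS, which draws homocysteine and serine into cystathionine, by 0.21 (limma adjusted p = 0.0487).

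Of 11 proline and ornithine genes, 8 were tested, with a median of -0.060. Of these 8, 1 was called (12.5%, against 20.9% of all genes tested). That gene was OAT, the ornithine aminotransferase, which fell from 113 and 109.7 FPKM to 62.2 and 64.7 FPKM (log2 fold change -0.80, SE 0.057, limma adjusted p = 0.000812). Both knockdown libraries lay far below both controls, and the fold change was larger in size than that of any of the 10 enzymes. Of 17 asparagine, aspartate, alanine and glutamate genes, 13 were tested, 2 rose and 1 fell, with a median of -0.0042. That is 23.1% called, against 20.9% of all genes tested. Over all pathway genes outside the members and the ATF4 response, 47 were tested and 21.3% were called, near the share of all genes. GLUL, glutamine synthetase, rose from 73.5 and 69.3 FPKM to 109 and 105 FPKM (0.58, limma adjusted p = 0.0021). ADSS1, an adenylosuccinate synthetase, rose from 2.47 and 2.38 FPKM to 3.54 and 3.51 FPKM (0.40, limma adjusted p = 0.0213). ASL, argininosuccinate lyase, fell from 12.5 and 11.9 FPKM to 8.45 and 6.98 FPKM (-0.61, limma adjusted p = 0.00762).

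**Figure D4:**
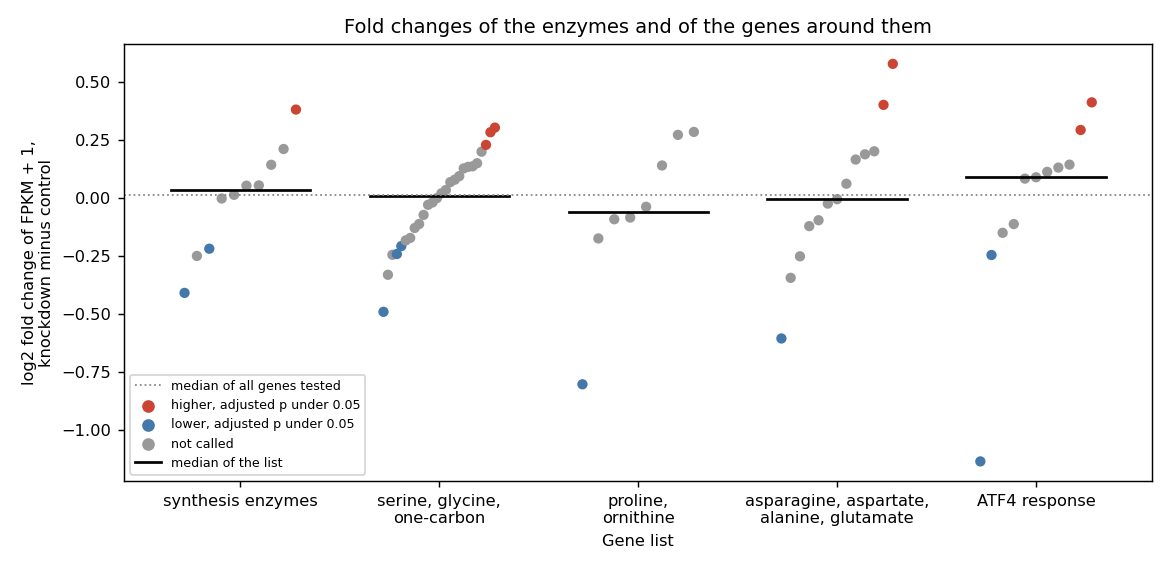
Log2 fold changes of FPKM + 1, knockdown minus control, with 1 point per tested gene for the 10 enzymes and for 4 lists of related genes, a bar at each list's median and a dotted line at the median of all genes tested. Medians lie between -0.060 and 0.090, and called genes lie on both sides of 0 in every list but that of proline and ornithine, where OAT (-0.80) is the one called.

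ATF4 itself measured 232 and 211 FPKM in the controls against 241 and 228 FPKM after knockdown. The groups overlapped, and its log2 fold change was 0.085 (SE 0.068, limma adjusted p = 0.409), with 0.15 without control 1 and 0.018 without control 2. Of 15 genes listed for the ATF4 response, ATF4 included, 11 were tested, 2 rose and 2 fell. That is 36.4% called, against 20.9% of all genes tested, and the median was 0.090. ATF5, a related leucine-zipper factor, fell from 39.2 and 36.6 FPKM to 15.9 and 17.5 FPKM (-1.14, SE 0.071, limma adjusted p = 0.000638). TRIB3, a pseudokinase that restrains the response, fell by 0.24 in log2 units (limma adjusted p = 0.0466). DDIT4, an inhibitor of mTOR signalling, rose from 146 and 131 FPKM to 187 and 182 FPKM (0.41, limma adjusted p = 0.00941), and XBP1 of the unfolded protein response rose by 0.29 (limma adjusted p = 0.037). Of the 14 genes called in the 4 lists, the same 5 (ASL, ATF5, GLUL, MTR and OAT) were called without knockdown 1 and without knockdown 2, while the other 9 were not. Of these 5, ASL, GLUL and MTR were not called with the most abundant transcript (limma adjusted p = 0.317, 0.0645 and 0.0574), and ASL was not called with no filter on low values (limma adjusted p = 0.0553). Without control 1, ADSS1, ATIC, CBS and TRIB3 were lost, and without control 2, ADSS1, SFXN1, SLC25A32 and XBP1 were lost.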

How the data were processed

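Reads were filtered and mapped with HISAT (HISAT2 2.0.5 and hg38 in the submitters' processing notes), and the authors deposited 1 table of FPKM values per RefSeq transcript with a column per library. The quantifier and the annotation release were not given in the sources used here. Of 29265 entries, 183 without a value and 164 without a symbol (0.25% of all FPKM) were left out, and 28918 transcripts were summed per symbol. Low values gave no steps of whole reads: among 2798 low genes with a single transcript, the most common rounded ratio of the controls made up 1.14%. Depth was therefore unknown, and no interval from counting error is given.

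The study tested counts, which this table does not hold. Genes that averaged 1 FPKM or more were therefore fitted on log2(FPKM + 1) in limma 3.58.1 (R 4.3.3) with a trended prior variance. Tests were 2-sided and adjusted over all genes by Benjamini-Hochberg, and the step was tested on simulated data. On this scale the folds of low genes come out too small. The members and gene lists were chosen with earlier results of these data known. All members were named, with CEBPG, ATF4, PYCR3 and GPT, the called genes of each list, and the highest marker of each list. A few genes were left out of the lists and are not reported here. An exact permutation test of 2 against 2 libraries cannot go below p = 0.333 and was not used. Protein sequences were not used here. Alternatives were another pseudocount, other filters, the replicate number as a block, other scalings, moderation without a trend, the most abundant transcript, and each library left out.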

Additional observations from a re-analysis of the deposited data

How the results depend on the processing

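The 13 alternatives gave 130 values for the 10 enzymes, of which 107 kept their direction and their side of the threshold, 11 were no longer called, 6 became called and 6 changed sign. The sign changes were in genes not called there: MTHFD2 at -0.12 with coding transcripts only (chosen after seeing the data) and with the most abundant transcript and at -0.0073 with columns scaled to one sum, PYCR1 at -0.027 without control 2 (0.14 without control 1), and GPT2 at 0.031 without control 1 and 0.015 without knockdown 2 (-0.033 without control 2). The number of enzymes called (3) was 1, PSAT1, with the most abundant transcript and with no filter on low values, and 0 to 4 with 1 library left out. The number called among the related genes (14) was 3 and 5 in those 2 settings and 5 to 13 with 1 library left out, and that of all genes (2288) was 579 and 882, and 809 to 1931. A group left with 1 library was assumed to vary like the other. With moderation without a trend, PHGDH and PSAT1 were called. With the replicate number as a block, 5 enzymes, 22 related genes and 3440 genes were called, SHMT1 and ALDH18A1 being the enzymes added. No label ties equal numbers to a shared culture or day, and over genes the deviations from the group means correlated at 0.10 between libraries of equal number. No enzyme passed the threshold of the study under any of the 13 alternatives. Both scalings moved the median of all genes by under 0.1 on the log2 scale. With 2 libraries a group, 95% confidence intervals of the enzymes reached up to 0.21 to either side, and changes within an interval that crosses 0 could not be told from none.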
